A study of Rattus norvegicus with 30 samples.

Results

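Genes of the phagocyte oxidase and of the antioxidant enzymes around it were followed in rat plantaris tendons after tenotomy and repair. The 9 genes were a given list, Cybb, Cyba, Ncf1, Ncf4, Rac2, Nox4, Sod2, Sod3 and Gpx3, looked up by name among the 13124 genes of the deposited count table, and all 9 were listed and passed the filter on expression that left 12558 genes for testing. The right plantaris tendons of 30 male Sprague Dawley rats, 3 months old, were analysed by RNA sequencing. Rats of the 6 repaired groups had a full cut through the plantaris tendon of both hind limbs with an immediate suture repair by the Bunnell technique. They then received GSK2894631A, which inhibits the hematopoietic prostaglandin D synthase HPGDS, at 0, 2 or 6 mg/kg by oral gavage in a vehicle of hydroxypropyl methylcellulose and Tween80, and tendons were taken at 7 days (7D) or 21 days (21D). The labels give 5, 4 and 3 tendons at 7D for the doses of 0, 2 and 6 mg/kg, and 5 tendons for each dose at 21D. The 3 control tendons came from rats without surgery or test compound, so that the repair and the gavage that went with it cannot be told apart in a comparison to control. Each tendon was from a separate rat and was cut free just inside the muscle junction and the heel bone, so it held the scar as well as the tendon around it. The Achilles tendon was left intact in all rats.

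Phagocytes make superoxide with a membrane-bound NADPH oxidase. Its catalytic subunit and a small partner subunit sit in the membrane, and on activation they are joined by proteins from the cytosol and by a Rac GTPase. Neutrophils and macrophages, which enter a tendon after injury, are the main users of this complex, and NOX4 is a related oxidase of fibroblasts and other tissue cells that needs no cytosolic subunits and releases mainly hydrogen peroxide. Superoxide dismutases turn superoxide into hydrogen peroxide, and glutathione peroxidases reduce peroxides further.

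The values are deposited read counts per gene, given here per 1000000 counts (CPM) after TMM scaling, which adjusts the library totals for differences in composition. Groups were compared in 1 model of all 30 tendons by the quasi-likelihood test of edgeR, with p-values adjusted by Benjamini-Hochberg over all 12558 genes, and a gene was called changed at an adjusted p under 0.05. All comparisons to control share the same 3 control tendons, and comparisons of levels between genes are not made, since CPM is not scaled for gene length.

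The control tendons stood apart from the repaired tendons in more than the members. Total counts were 12405741 to 49909374 per tendon, and 3 counts corresponded to 0.0601 to 0.242 CPM. Skeletal muscle genes, 17 of a list of 20 being in the table, took up 14.87 to 22.09% of a control library. Their share at 7D was 0.118 to 0.983% with 0 mg/kg, 0.00724 to 0.00937% with 2 mg/kg and 0.00741 to 0.00921% with 6 mg/kg, and over all 21D libraries it was 0.0506 to 7.58%. TMM factors were 0.599 to 0.788 in control tendons and 0.950 to 1.095 in repaired tendons. Scaling by library size only moved the median log2 fold change of all genes to 0.508 to 0.641 against control, from 0.00728 to 0.0548, and raised the share of higher genes among those called from 48 to 51.3% to 74.1 to 77.9%. All 8 tendon cell markers looked up were listed, and Tnmd, a tendon surface protein, was at 147 to 364 CPM in control and 32.7 to 315 CPM in repaired tendons. At 7D 0 mg/kg 4 of the 8 were called lower, Tnmd (-1.43), Fmod (-1.64), Chad (-5.74) and Mkx (-4.10), and 1 higher, Col1a1 (1.14), as log2 fold changes, and their summed level was 8987 to 36846 CPM in control and 23996 to 53414 CPM in 7D 0 mg/kg tendons. Control replicate 4 had the highest muscle share and the lowest leukocyte signal, with a summed level of 5 pan-leukocyte markers (Ptprc, Laptm5, Coro1a, Cd53 and Lcp1) of 91.1 CPM, and results are given with and without it where a call depends on it.

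Compared to control tendons, 7D 0 mg/kg tendons had 6 members higher and 1 lower, beside 35.8% of all genes tested called higher and 35.6% called lower. With 2 mg/kg at 7D, 6 members were higher and 0 lower (all genes: 35.8% higher, 34% lower), and with 6 mg/kg again 6 and 0 (34.1% and 33.8%). At 21D the counts were 7 higher and 0 lower with 0 mg/kg (32.2% and 33.7%), 7 higher and 0 lower with 2 mg/kg (33.8% and 35.3%), and 7 higher and 2 lower at 6 mg/kg (30.8% and 33.3%). The paper, which also set a fold change cut, reported far fewer changed transcripts against control at 21D than at 7D with 0 mg/kg. Why its counts differ from the shares given here was not examined. The median log2 fold change of the 9 members was 2.26 in 7D 0 mg/kg tendons and 2.04 in 21D 0 mg/kg tendons, and that of all genes was 0.0481 and 0.0292. The members were chosen with earlier results of these data known, so these counts and medians are no test of the list against all genes. The 5 phagocyte oxidase genes and Nox4 were called higher in each of the 6 repaired groups, and the 3 antioxidant genes accounted for all differences between the groups in these counts.

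Promoter sequences of RefSeq on GRCr8, 250 bases before to 50 bases after each gene's start, were matched by symbol for 6 of the 9 members, and Ncf4, Rac2 and Sod3 had no entry in the table. Those of 3 phagocyte oxidase genes that were higher in every repaired group are shown beside that of Nox4, the oxidase of tissue cells. They were searched on both strands for GAGGAA, the core of sites for PU.1, an ETS factor of myeloid cells, and for TGACNNNGC, the core of the antioxidant response element, 2 motifs chosen with results of these data known. Capitals mark the matches, in the orientation of the gene.
Cybb promoter: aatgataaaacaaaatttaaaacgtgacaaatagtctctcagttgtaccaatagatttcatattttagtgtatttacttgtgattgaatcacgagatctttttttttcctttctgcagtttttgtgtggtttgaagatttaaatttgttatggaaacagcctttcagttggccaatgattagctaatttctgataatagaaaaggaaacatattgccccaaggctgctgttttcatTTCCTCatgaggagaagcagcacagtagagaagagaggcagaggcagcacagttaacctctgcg
Cyba promoter: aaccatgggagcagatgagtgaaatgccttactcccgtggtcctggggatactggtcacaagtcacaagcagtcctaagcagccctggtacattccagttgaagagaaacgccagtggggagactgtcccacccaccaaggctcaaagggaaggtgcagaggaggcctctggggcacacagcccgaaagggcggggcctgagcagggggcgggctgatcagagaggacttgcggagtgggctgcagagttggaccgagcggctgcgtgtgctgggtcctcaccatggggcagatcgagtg
Ncf1 promoter: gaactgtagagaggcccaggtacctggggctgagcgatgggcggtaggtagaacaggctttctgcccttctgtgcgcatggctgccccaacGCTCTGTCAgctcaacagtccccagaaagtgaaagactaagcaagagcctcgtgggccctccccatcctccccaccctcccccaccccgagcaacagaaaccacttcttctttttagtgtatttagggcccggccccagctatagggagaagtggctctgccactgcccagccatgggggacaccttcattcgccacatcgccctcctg
Nox4 promoter: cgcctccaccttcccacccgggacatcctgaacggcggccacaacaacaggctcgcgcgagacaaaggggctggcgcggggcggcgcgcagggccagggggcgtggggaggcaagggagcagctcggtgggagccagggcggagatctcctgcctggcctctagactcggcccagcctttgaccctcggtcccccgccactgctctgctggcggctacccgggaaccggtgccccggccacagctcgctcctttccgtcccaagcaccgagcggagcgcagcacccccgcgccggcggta
These windows are chrX:16065016-16065315 on the minus strand for Cybb, chr19:67404165-67404464 on the minus strand for Cyba, chr12:28121635-28121934 on the plus strand for Ncf1 and chr1:150313639-150313938 on the plus strand for Nox4. Cybb held the first motif 1 time, on the reverse strand and beginning at base -14 from the start, and Ncf1 held the second 1 time, also on the reverse strand and beginning at base -159. Cyba and Nox4 held neither. Of the other members with an entry, Gpx3 held GAGGAA at -153 and Sod2 held TGACNNNGC at -35. Of all 33469 promoters in the table, 27.6% held GAGGAA and 12.1% held TGACNNNGC, and a match describes letters only.

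Cybb (ENSRNOG00000003622, chromosome X) encodes the catalytic subunit of the phagocyte oxidase, the one that carries electrons from NADPH to oxygen. Its level was 117, 68.7 and 22.6 CPM in the control tendons, 914, 408, 498, 310.1 and 675 CPM in the 7D 0 mg/kg tendons and 170.3, 2757, 253, 409.6 and 1046 CPM in the 21D 0 mg/kg tendons. In the treated groups it was 1184, 1112, 663 and 322 CPM at 7D 2 mg/kg, 868, 419 and 405 CPM at 7D 6 mg/kg, 382, 1358, 272, 1515 and 400.4 CPM at 21D 2 mg/kg and 183, 219, 414, 382 and 1080 CPM at 21D 6 mg/kg. Every repaired tendon was above every control tendon, so the groups did not overlap. A single tendon stood far above the rest at 21D 0 mg/kg (replicate 2, 2757 CPM) and at 21D 6 mg/kg (replicate 5, 1080 CPM). Group means were 69.5 ± 47.3 CPM (SD, n = 3) for control, 561 ± 239 CPM (SD, n = 5) for 7D 0 mg/kg and 927 ± 1079 CPM (SD, n = 5) for 21D 0 mg/kg. The log2 fold change against control was 3.01 ± 0.871 (SE) in 7D 0 mg/kg tendons (edgeR quasi-likelihood, adjusted p = 0.00347), 3.73 ± 0.908 (SE) in 21D 0 mg/kg tendons (adjusted p = 0.000909) and 2.71 to 3.56 in the 4 treated groups. In order of mean CPM the groups were 21D 0, 7D 2, 21D 2, 7D 6, 7D 0 and 21D 6 mg/kg and then control, and no neighbours among the repaired groups that were tested differed beyond their spread. Cybb had the largest spread of the members, with a pooled within-group SD of 1.09 on the log2 CPM scale, larger than that of 95.3% of all genes. Without replicate 2 the 21D 0 mg/kg change was 2.75 (adjusted p = 0.00349). Without control replicate 4 the change in 21D 6 mg/kg tendons was 2.24 and no longer called (adjusted p = 0.0503).

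Cyba (ENSRNOG00000013014, chromosome 19) encodes the small membrane subunit that stabilizes the catalytic subunit and that NOX4 uses as well. Its level was 61.5, 45.3 and 26.1 CPM in the control tendons, 253, 152, 236, 181 and 241 CPM in the 7D 0 mg/kg tendons and 109, 259.6, 156, 202 and 189 CPM in the 21D 0 mg/kg tendons. In the 4 treated groups it ranged from 123 to 272 CPM. No repaired tendon was as low as any control tendon, and replicate 5 was the low one of the 7D 2 mg/kg tendons (230.5, 223, 234 and 136 CPM). Mean levels of control, 7D 0 mg/kg and 21D 0 mg/kg tendons were 44.3 ± 17.7 CPM (SD, n = 3), 213 ± 43.5 CPM (SD, n = 5) and 183 ± 55.7 CPM (SD, n = 5). For Cyba the log2 fold change was 2.26 ± 0.309 (SE) at 7D 0 mg/kg (adjusted p = 5.63e-07, edgeR quasi-likelihood) and 2.04 ± 0.305 (SE) at 21D 0 mg/kg (adjusted p = 3.24e-06), and 1.86 to 2.21 in the treated groups. Cyba was the steadiest of the 5 phagocyte oxidase genes, with a within-group SD of 0.405 (log2 CPM).

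**Figure D1:**
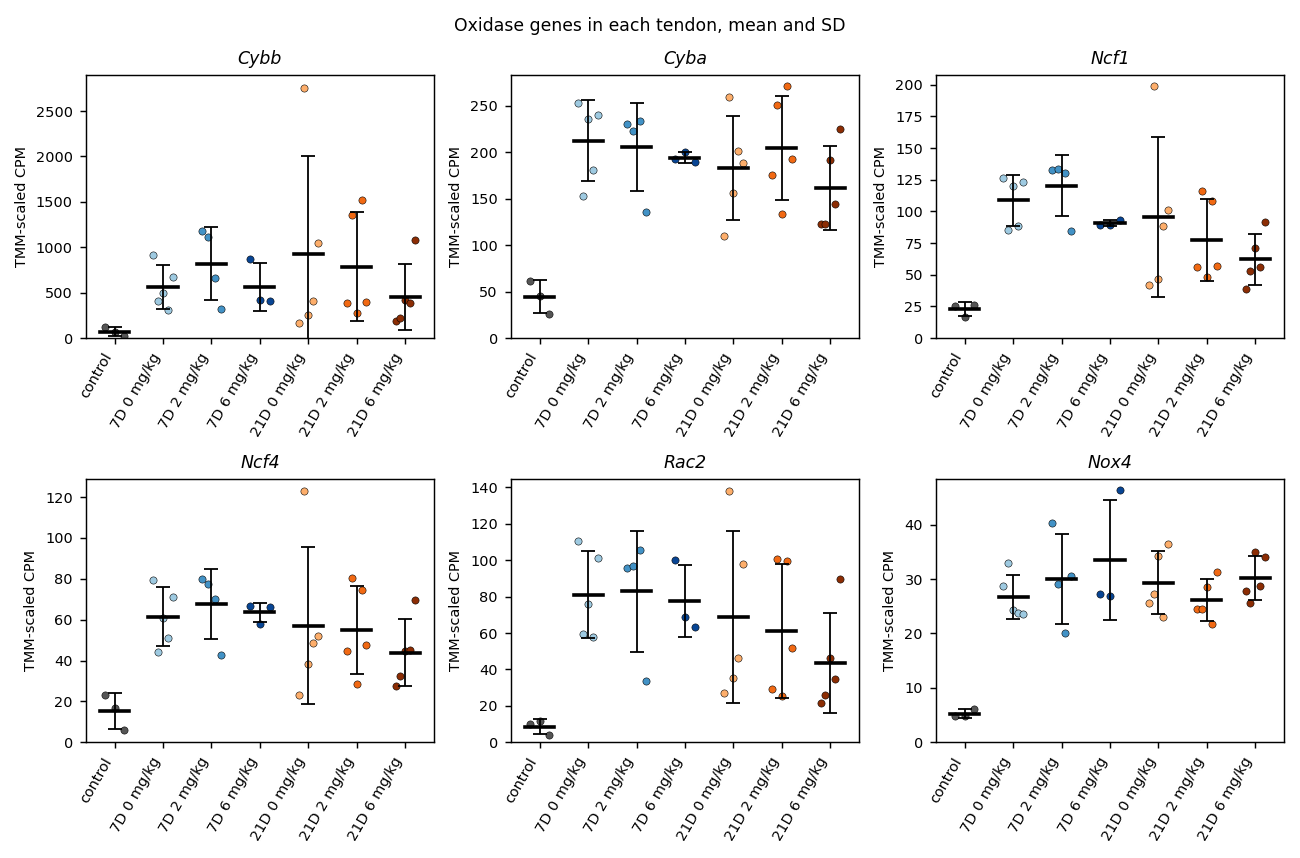
Level of the 5 phagocyte oxidase genes and Nox4 in each tendon (y axes, TMM-scaled CPM from 0; x axes, the 7 groups; points, tendons in order of replicate number; bars, mean and SD). Control tendons sit at 22.6 to 117 CPM for Cybb, and the single high tendon of the 21D 0 mg/kg group is at 2757 CPM.

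Ncf1 (ENSRNOG00000001480, chromosome 12) encodes the organizer subunit, which carries the cytosolic complex to the membrane. Its level was 25.4, 16.4 and 26.4 CPM in the control tendons, 127, 85.7, 119.8, 88.6 and 123 CPM in the 7D 0 mg/kg tendons and 42, 199, 46.9, 88.2 and 101 CPM in the 21D 0 mg/kg tendons. The 4 treated groups ranged from 39.1 to 134 CPM. Every repaired tendon was above the controls, and the 21D 0 mg/kg tendons spread 4.74-fold with replicate 2 highest. Against control Ncf1 had a log2 fold change of 2.26 ± 0.414 (SE) at 7D 0 mg/kg (edgeR quasi-likelihood, adjusted p = 3.19e-05), 2.07 ± 0.41 (SE) at 21D 0 mg/kg (adjusted p = 0.00011) and as low as 1.45 ± 0.398 (SE) at 21D 6 mg/kg (adjusted p = 0.00274). Within the 7D 6 mg/kg group Ncf1 was nearly constant, at 89.1, 89.5 and 93.3 CPM.

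Ncf4 (ENSRNOG00000006940, chromosome 7) encodes a further cytosolic subunit, which binds a lipid of phagosome membranes. Its level was 23.3, 16.7 and 6.04 CPM in the control tendons, 79.6, 44, 61, 51.2 and 71.1 CPM in the 7D 0 mg/kg tendons and 23.4, 123, 38.3, 48.6 and 52.1 CPM in the 21D 0 mg/kg tendons. The 4 treated groups ranged from 27.6 to 80.2 CPM. The 7D 0 mg/kg tendons lay well above the controls, while the lowest 21D 0 mg/kg tendon lay just above the highest control. Ncf4 differed from control by a log2 fold change of 1.99 ± 0.459 (SE) at 7D 0 mg/kg (edgeR quasi-likelihood, adjusted p = 0.000451) and 1.88 ± 0.457 (SE) at 21D 0 mg/kg (adjusted p = 0.000903). At 21D 6 mg/kg it was 1.50 ± 0.449 (SE) (adjusted p = 0.00528), and without control replicate 4 this became 1.09 and was no longer called (adjusted p = 0.051).

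Rac2 (ENSRNOG00000007350, chromosome 7) encodes the Rac GTPase of blood cells, which switches the assembled complex on. Its level was 10.1, 11.6 and 3.92 CPM in the control tendons, 110.5, 59.6, 76, 58.1 and 101 CPM in the 7D 0 mg/kg tendons and 27.2, 138, 35.5, 46.3 and 97.7 CPM in the 21D 0 mg/kg tendons. The 4 treated groups ranged from 21.6 to 106 CPM. All repaired tendons were above the controls, and replicate 5 at 7D 2 mg/kg was the lowest tendon of the 7D groups. In the model Rac2 had a log2 fold change of 3.23 ± 0.631 (SE) at 7D 0 mg/kg (edgeR quasi-likelihood, adjusted p = 7.16e-05), 2.99 ± 0.624 (SE) at 21D 0 mg/kg (adjusted p = 0.000193) and 2.33 to 3.26 in the treated groups. Rac1, the Rac GTPase found in most cells, differed by 0.09 ± 0.098 (SE) at 7D 0 mg/kg (adjusted p = 0.442). In RefSeq's annotation of GRCr8 the Rac2 locus overlaps 2 lncRNA genes, and since the sources used here do not say whether strand was used in counting, reads of an overlapping gene could have entered its count.

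Between control and repaired tendons, the 5 phagocyte oxidase genes moved with pan-leukocyte markers. All 5 pan-leukocyte markers were called higher in 7D 0 and 21D 0 mg/kg tendons, and their summed level was 91.1 to 280 CPM in control tendons, 762 to 1415 CPM at 7D 0 mg/kg, 558 to 1393 CPM at 7D 2 mg/kg, 1133 to 1532 CPM at 7D 6 mg/kg, and 398 to 2352, 453 to 1405 and 431 to 1161 CPM at 21D 0, 2 and 6 mg/kg. Of 10 macrophage markers, 8 were higher at 7D 0 mg/kg, 6 at 21D 0 mg/kg and 4 at 21D 6 mg/kg. Their summed level was 417 to 1856 CPM in controls, 2302 to 5349 CPM at 7D 0 mg/kg and 1509 to 7937 CPM at 21D 0 mg/kg. Of 8 neutrophil markers 6 were listed, of which 5 were called higher at 7D 0 mg/kg and 0 at 21D 0, 2 or 6 mg/kg. Their sum was 10.1 to 16.9 CPM in controls, 75.6 to 141 CPM at 7D 0 mg/kg and 11.8 to 29.2 CPM at 21D 0 mg/kg. These marker counts stand beside 35.8% of all genes called higher at 7D 0 mg/kg and 32.2, 33.8 and 30.8% at 21D 0, 2 and 6 mg/kg. The defining neutrophil genes Mpo and Elane were not analysed here. In these bulk samples more phagocytes and more RNA of these genes per cell cannot be told apart.

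Within a time point, tendons with more leukocyte signal had more of the phagocyte oxidase genes. Across the 15 tendons at 21D, log2 CPM followed the log2 sum of the 5 pan-leukocyte markers with Pearson r of 0.955 for Cybb, 0.941 for Cyba, 0.958 for Ncf1, 0.985 for Ncf4 and 0.943 for Rac2 (Spearman rho 0.982, 0.957, 0.975, 0.975 and 0.95). Each of these had a permutation p of 1e-05, the smallest that 100000 resamples can give, or 5.4e-05 adjusted over the 27 relations computed. Across the 12 tendons at 7D, r was 0.798 for Cybb, 0.852 for Cyba, 0.632 for Ncf1, 0.922 for Ncf4 and 0.937 for Rac2 (adjusted permutation p 0.00206, 0.00264, 0.0373, 0.000231 and 0.000225), and rho was 0.825, 0.622, 0.65, 0.846 and 0.853 (adjusted permutation p 0.0055, 0.077, 0.0647, 0.00401 and 0.00364). The rank relations of Cyba and Ncf1 at 7D thus did not pass the adjustment. Their r, with dose means not removed, fell to 0.473 and 0.433 without the 2 tendons farthest from the median of the marker sum. These r at 7D thus depended on those tendons. For the other oxidase genes r without those tendons was 0.823 to 0.877 at 7D and, for all 5, 0.926 to 0.973 at 21D. After removing the mean of each dose, with all tendons kept, r was 0.916 to 0.97 at 7D and 0.943 to 0.987 at 21D. Single dose groups held too few tendons for a value of their own. Nox4 (r of -0.0832 at 7D and -0.0383 at 21D), Sod2 (-0.0875 and 0.359), Sod3 (-0.0459 and -0.0441) and Gpx3 (-0.035 and -0.05) had adjusted permutation p of 0.316 to 0.917.

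**Figure D2:**
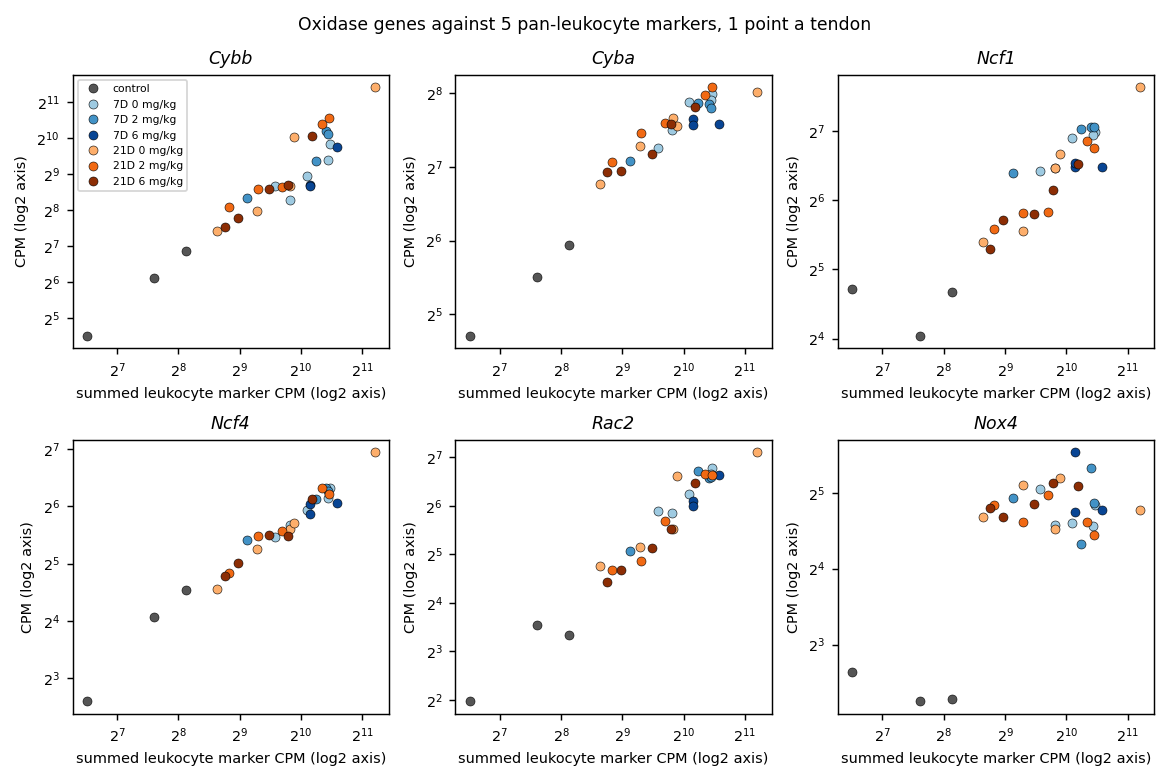
Level of each oxidase gene (y axes, CPM) against the summed level of 5 pan-leukocyte markers (x axes, CPM), both on log2 axes, with 1 point for each of the 30 tendons coloured by group. At 21D the points of Ncf4 run along a line (r = 0.985), whereas those of Nox4 form a flat band (r = -0.0383).

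The members were also set against the leukocyte signal tendon by tendon, a comparison added after the data were seen. The log2 ratio of Cybb to the pan-leukocyte sum was -1.59 ± 0.385 in control tendons, -1.05 ± 0.332 in 7D 0 mg/kg tendons and -0.66 ± 0.775 in 21D 0 mg/kg tendons (SD, n = 3, 5 and 5), and the exact permutation p was 0.107 and 0.0714. Relative to the sum the difference from control was -0.491 at 7D and -0.475 at 21D for Ncf4, -0.342 at 7D for Cyba and 0.68 at 7D for Rac2, each with an exact two-sided p of 0.0357, the smallest that 3 against 5 tendons allow. Ncf1 differed by -0.395 and -0.488 (exact p = 0.679 and 0.571), and its log2 ratio spread widely in the controls, from -3.57 to -1.79 (SD 0.998). Control replicate 4 had the lowest leukocyte signal but the highest Ncf1 level of the controls, 26.4 CPM. None of the 24 ratios tested passed after adjustment, and the smallest adjusted p of these exact permutation tests was 0.107. An adjusted p under 0.05 would have needed most of the 24 tests to reach the smallest possible p of 0.0357. The adjusted result could thus hardly have passed and does not show that the ratios were unchanged. Against the macrophage sum, Cybb was higher by 1.34 at 7D and 1.54 at 21D and Rac2 by 1.48 and 1.15 (exact p = 0.0357 for each, adjusted p = 0.107), while the differences of Cyba and Ncf4 turned to 0.456 and 0.307 at 7D.

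The share of skeletal muscle counts also moved with the groups. The log2 of that share, not the percentage itself, was added as a covariate to the edgeR model. At 7D 0 mg/kg Cybb was then 1.05 (adjusted p = 0.308) and Ncf4 0.75 (adjusted p = 0.171), so both calls ended. Cyba (1.44), Ncf1 (1.13) and Rac2 (1.89) were still called. At 7D 2 mg/kg the 5 phagocyte oxidase genes lost their calls, at -0.35 for Cybb, -0.32 for Ncf4, 0.62 for Cyba and Rac2 and 0.19 for Ncf1. At 7D 6 mg/kg they lost them as well, at -0.84 for Cybb, -0.39 for Ncf4, -0.20 for Ncf1 and 0.55 for Cyba and Rac2, with adjusted p of 0.493 to 0.857. At 21D all 5 were kept at 0 and 2 mg/kg, and Cybb (1.36), Ncf1 (0.74) and Ncf4 (0.74) were lost at 6 mg/kg. The lowest muscle share of a control tendon, 14.87%, lay above the highest of a repaired tendon, 7.58%, so that muscle content and repair cannot be told apart in the comparisons to control. Among the 15 repaired tendons at 21D, r with the log2 sum of the muscle genes was -0.635 for Cybb, -0.638 for Cyba, -0.655 for Ncf1, -0.679 for Ncf4 and -0.586 for Rac2 (adjusted permutation p 0.0139 to 0.0373), with rho of -0.654 to -0.464 and r of -0.601 to -0.43 without the 2 farthest tendons. The rank relations of Ncf1, Ncf4 and Rac2 with the muscle genes did not pass the adjustment (adjusted permutation p 0.123 to 0.148).

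Nox4 (ENSRNOG00000013925, chromosome 1), the oxidase of tissue cells rather than of phagocytes, was higher in every repaired group. Its level was 4.86, 4.77 and 6.21 CPM in the control tendons, 28.6, 33, 24.3, 23.8 and 23.6 CPM in the 7D 0 mg/kg tendons and 25.6, 27.3, 34.3, 23.1 and 36.5 CPM in the 21D 0 mg/kg tendons. In the treated groups it was 40.3, 29.1, 20 and 30.5 CPM at 7D 2 mg/kg, 27.3, 26.9 and 46.3 CPM at 7D 6 mg/kg, 24.4, 24.5, 28.6, 21.7 and 31.4 CPM at 21D 2 mg/kg and 27.9, 25.7, 34.9, 28.8 and 34 CPM at 21D 6 mg/kg. The lowest repaired tendon, at 20.0 CPM, was far above the highest control, at 6.21 CPM, and the repaired groups overlapped each other. Mean levels of control, 7D 0 mg/kg and 21D 0 mg/kg tendons were 5.28 ± 0.805 CPM (SD, n = 3), 26.7 ± 4.1 CPM (SD, n = 5) and 29.4 ± 5.76 CPM (SD, n = 5). For Nox4 the log2 fold change was 2.35 ± 0.228 (SE) at 7D 0 mg/kg (edgeR quasi-likelihood, adjusted p = 3.41e-09), 2.48 ± 0.229 (SE) at 21D 0 mg/kg (adjusted p = 5.27e-09) and 2.31 to 2.67 in the treated groups. Its within-group SD was 0.281 (log2 CPM), against a median of 0.26 over all genes. The calls of Nox4 held with the muscle covariate, at 2.31 to 2.66 in the 6 groups, and without control replicate 4, at 2.38 to 2.76. In order of mean CPM the groups were 7D 6, 21D 6, 7D 2, 21D 0, 7D 0 and 21D 2 mg/kg and then control, and the repaired neighbours that were tested did not differ beyond their spread. Some markers of other tissue cells were also called higher at 7D, beside 35.8, 35.8 and 34.1% of all genes at 0, 2 and 6 mg/kg. Of 5 adipocyte markers 3, 5 and 4 were called higher at 7D 0, 2 and 6 mg/kg, with a sum of 154 to 562 CPM in control and 395 to 995 CPM in 7D 0 mg/kg tendons. Of 6 smooth muscle and pericyte markers 3, 1 and 3 were higher in these groups and 1 in each 21D group (173 to 357 CPM in control, 403 to 832 CPM at 7D 0 mg/kg and 311 to 537 CPM at 21D 0 mg/kg), and of 4 endothelial markers 2, 2 and 1 were higher at 7D (117 to 461 CPM in control, 357 to 604 CPM at 7D 0 mg/kg). At 21D no adipocyte or endothelial marker was called higher at any dose, beside 30.8 to 33.8% of all genes. At 21D 2 mg/kg, 1 adipocyte, 2 endothelial and 1 smooth muscle and pericyte marker were called lower, beside 35.3% of all genes. The part of these cell types in the levels of Nox4 and Gpx3 was not tested.

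**Figure D3:**
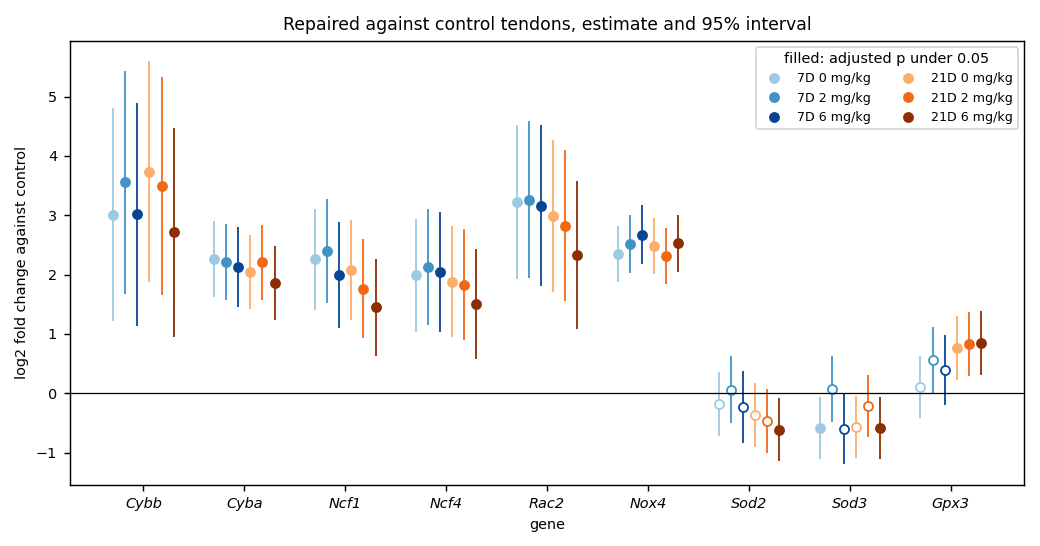
Log2 fold change of each member (x axis) in the 6 repaired groups against control (y axis; points, edgeR estimates, filled where the adjusted p was under 0.05; lines, 95% intervals). The intervals of Nox4 are the narrowest of the 6 oxidase genes, and those of Cybb the widest, from 1.22 to 4.80 at 7D 0 mg/kg.

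Of the antioxidant members Gpx3 was called higher in the 3 groups at 21D, Sod3 lower in 2 groups and Sod2 lower in 1 group. Sod2 (ENSRNOG00000019048, chromosome 1) encodes the manganese superoxide dismutase of mitochondria. Its level was 429.6, 360.2 and 715 CPM in the control tendons, 629, 424, 434, 325 and 393 CPM in the 7D 0 mg/kg tendons and 425, 538, 267, 265 and 451 CPM in the 21D 0 mg/kg tendons. At 21D 6 mg/kg it was 391, 329, 299, 276 and 348 CPM. The control and repaired tendons overlapped in each of these groups, and control replicate 4 was the highest of the controls. The log2 fold change was -0.19 ± 0.263 (SE) at 7D 0 mg/kg (edgeR quasi-likelihood, adjusted p = 0.535), -0.37 ± 0.261 (SE) at 21D 0 mg/kg (adjusted p = 0.22) and -0.61 ± 0.26 (SE) at 21D 6 mg/kg (adjusted p = 0.043), the only Sod2 call in the 6 groups. That call was lost in 5 of the 8 fits that left out 1 tendon, at -0.31 (adjusted p = 0.353) without control replicate 4, and under library-size scaling it was -0.06 (adjusted p = 0.85). Under that scaling Sod2 was above control at 7D 0, 2 and 6 mg/kg by 0.46, 0.67 and 0.41, the second of these past the threshold (adjusted p = 0.0285, edgeR), and at 21D 0 and 2 mg/kg by 0.25 and 0.12.

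Sod3 (ENSRNOG00000003869, chromosome 14) encodes the extracellular superoxide dismutase, which binds to the matrix. Its level was 392, 267 and 134 CPM in the control tendons, 183, 199, 158, 142 and 196 CPM in the 7D 0 mg/kg tendons and 246, 201, 392 and 275 CPM in the 7D 2 mg/kg tendons. Control replicate 4 was below every 7D 0 mg/kg tendon and the other control tendons were above them. The log2 fold change was -0.59 ± 0.254 (SE) at 7D 0 mg/kg (edgeR quasi-likelihood, adjusted p = 0.0401) and -0.59 ± 0.254 (SE) at 21D 6 mg/kg (adjusted p = 0.0463), both called, and 0.07, -0.60, -0.56 and -0.21 at 7D 2, 7D 6, 21D 0 and 21D 2 mg/kg, not called. Without control replicate 4 the change was -0.97 (adjusted p = 0.00099) at 7D 0 mg/kg, -0.96 (0.00316) at 7D 6 mg/kg, -0.93 (0.00194) at 21D 0 mg/kg, -0.59 (0.0351) at 21D 2 mg/kg and -0.95 (0.00165) at 21D 6 mg/kg, all called, and -0.29 (0.31) at 7D 2 mg/kg. With any single tendon left out in turn, the call at 7D 0 mg/kg was lost in 5 of 8 fits and that at 21D 6 mg/kg in 6 of 8. Under library-size scaling the change was -0.04 (adjusted p = 0.891) at 7D 0 mg/kg and above 0 at 7D 2 mg/kg (0.58) and 21D 2 mg/kg (0.27), and no comparison of Sod3 to control passed. With the muscle share as a covariate both calls ended as well, at -0.36 (adjusted p = 0.417) and -0.45 (adjusted p = 0.201). The 7D 2 mg/kg tendons were above the 7D 0 mg/kg tendons by 0.67 ± 0.235 (SE) on the log2 scale, and this missed the threshold (adjusted p = 0.143).

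Gpx3 (ENSRNOG00000052564, chromosome 10) encodes the secreted glutathione peroxidase of plasma and extracellular fluid. Its level was 887, 1365 and 681 CPM in the control tendons, 1535, 1030, 768, 1045 and 883 CPM in the 7D 0 mg/kg tendons and 1290, 1140, 2678, 1634 and 1540 CPM in the 21D 0 mg/kg tendons. At 21D 2 mg/kg it was 1593, 1940, 1536, 1804 and 1798 CPM and at 21D 6 mg/kg 1810, 1388, 2554, 1355 and 1690 CPM. The 21D 2 mg/kg tendons were above all controls, and the 21D 0 and 6 mg/kg tendons overlapped with the highest control. The log2 fold change was 0.11 ± 0.256 (SE) at 7D 0 mg/kg (edgeR quasi-likelihood, adjusted p = 0.724), and 0.76 ± 0.262 (SE), 0.83 ± 0.263 (SE) and 0.85 ± 0.263 (SE) at 21D 0, 2 and 6 mg/kg (adjusted p = 0.0134, 0.00737 and 0.00696). Without control replicate 4 these were 0.51, 0.56 and 0.60 and none was called (adjusted p = 0.131, 0.0942 and 0.0807), and under library-size scaling Gpx3 was called in all 6 groups, at 0.66 to 1.32. The calls at 0 and 2 mg/kg were also lost without control replicate 2. In order of mean CPM the groups were 21D 6, 21D 2, 21D 0, 7D 2, 7D 6 and 7D 0 mg/kg and then control.

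**Figure D4:**
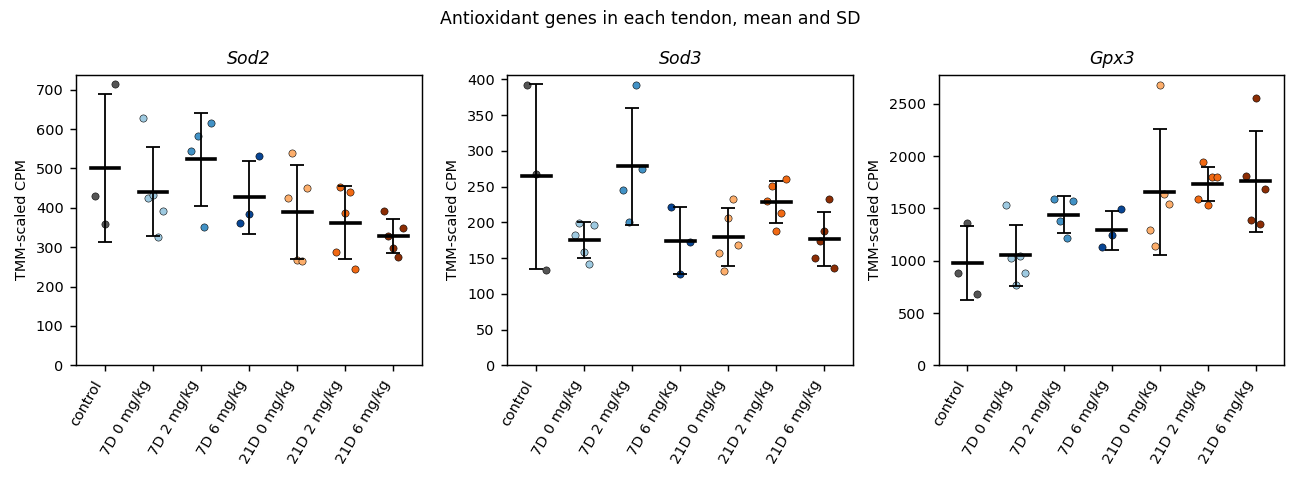
Level of Sod2, Sod3 and Gpx3 in each tendon (y axes, TMM-scaled CPM from 0; x axes, the 7 groups; points, tendons in order of replicate number; bars, mean and SD). The control tendons spread from 134 to 392 CPM for Sod3 and overlap the repaired groups, and the 21D groups of Gpx3 have the highest means, 1657 to 1760 CPM.

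Time after repair was compared at each dose. With edgeR 0 of the 9 members was called in 21D against 7D tendons at 0 mg/kg (all genes: 2.88% higher, 2.47% lower), at 2 mg/kg (7.09% and 5.98%) or at 6 mg/kg (8.54% and 4.55%). At an unadjusted p under 0.05 there were 1, 1 and 0 members, and DESeq2 called 1 member, Gpx3, at 0 mg/kg. Gpx3 was higher at 21D by 0.66 ± 0.222 (SE) at 0 mg/kg (adjusted p = 0.0765), and by 0.27 and 0.45 at 2 and 6 mg/kg. For the oxidase genes the intervals were wide, with a 95% interval of -0.63 to 2.08 for Cybb, -1.19 to 0.72 for Rac2 and -0.22 to 0.49 for Nox4 on the log2 scale at 0 mg/kg. For the 5 phagocyte oxidase genes the estimates moved with 21D 0 mg/kg replicate 2, without which the difference of Cybb turned from 0.72 to -0.26, and those of Cyba, Ncf1, Ncf4 and Rac2 were -0.38, -0.65, -0.60 and -0.65. Of the 6 neutrophil markers, 3 were called lower at 21D than at 7D at 0 mg/kg.

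The HPGDS inhibitor was compared at matched times, the question the study was designed for. By edgeR 0 members were called for 2 against 0 mg/kg at 7D (2.36% of all genes in either direction), 6 against 0 mg/kg at 7D (0.39%), 6 against 2 mg/kg at 7D (0%), and 2 against 0, 6 against 0 and 6 against 2 mg/kg at 21D (0%, 0% and 0%). At an unadjusted p under 0.05 there were 1, 0, 1, 0, 0 and 0 members, and DESeq2 called 0 in each of the 6 pairs. In the test over the 3 doses 0 members were called at 7D (2.05% of all genes) or at 21D (0%), with 1 and 0 at an unadjusted p under 0.05, and 0 members had dose effects that differed between 7D and 21D (0.39%), with 0 at an unadjusted p under 0.05. The smallest adjusted p among the members over these dose tests was 0.143, for Sod3. With the muscle share as a covariate in edgeR, Ncf1 was called lower for 6 against 0 mg/kg at 7D, at -1.33 (adjusted p = 0.046). The value without the covariate was -0.26. Of the 17 muscle markers, 11 and 9 were themselves lower with 2 and with 6 than with 0 mg/kg at 7D. The muscle share at 7D was at most 0.00937% with 2 or 6 mg/kg and at least 0.118% with 0 mg/kg. Dose and muscle share thus cannot be told apart in the comparisons to 0 mg/kg at 7D.

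The size of a dose effect that the data leave possible differed by gene. For 6 against 0 mg/kg at 21D the 95% interval of the log2 difference was -0.31 to 0.40 for Nox4, -0.68 to 0.31 for Cyba, -0.37 to 0.54 for Gpx3 and -0.71 to 0.23 for Sod2. For Cybb, where the estimate was -1.02, it was -2.38 to 0.34, and for Rac2 and Ncf1 it was -1.62 to 0.30 and -1.29 to 0.04. At 7D the interval was -1.55 to 1.56 for Cybb and -0.08 to 0.74 for Nox4, with 3 tendons at 6 mg/kg. The estimates of the 5 phagocyte oxidase genes for 6 against 0 mg/kg at 21D were -1.02 to -0.18 on the log2 scale, none past the threshold, and the summed pan-leukocyte markers had medians of 713 and 903 CPM in these groups. Without 21D 0 mg/kg replicate 2 these estimates were -0.04 for Cybb, -0.02 for Cyba, -0.16 for Ncf1, 0.11 for Ncf4 and -0.24 for Rac2.

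Other genes of the NADPH oxidase system were read from a list of 17, of which 12 were listed and tested. At 7D 0 mg/kg 7 were called higher, 3 lower and 2 neither, with a median log2 fold change of 1.1, and at 21D 0 mg/kg 7 were higher and 2 lower, beside 35.8% of all genes called higher and 35.6% lower at 7D and 32.2% and 33.7% at 21D. The largest rises at 7D 0 mg/kg were in Hvcn1, a proton channel that balances the charge moved by the oxidase (3.76 ± 0.868 (SE), adjusted p = 0.000441, edgeR quasi-likelihood), Vav1, an exchange factor for Rac in blood cells (2.66 ± 0.6 (SE)), Duox1, a dual oxidase that makes hydrogen peroxide (2.28 ± 0.242 (SE)), its maturation factor Duoxa1 (1.88 ± 0.231 (SE)) and Prkcd, a kinase (1.65 ± 0.479 (SE)). Hvcn1 was at 3.02, 1.84 and 0.98 CPM in control and 42, 23, 24.6, 16.2 and 30.4 CPM in 7D 0 mg/kg tendons, with no overlap. Nox1, the oxidase known from colon epithelium and smooth muscle, was lower, at 5.33, 18.7 and 3.19 CPM in control, 0.0823, 0.384, 0.0559, 0.145 and 0.223 CPM at 7D 0 mg/kg and 2.05, 1.39, 0.27, 2.47 and 0.665 CPM at 21D 0 mg/kg. The change from control of Nox1 was -5.64 ± 0.848 (SE) (log2) at 7D 0 mg/kg (edgeR quasi-likelihood, adjusted p = 2.3e-06), from 2 to 14 counts per tendon, and it was the only gene of the list called between 21D and 7D at 0 mg/kg (2.90 ± 0.761 (SE), adjusted p = 0.0276). Poldip2, a partner of NOX4, and Rap1a, a small GTPase, were lower as well, with log2 fold changes of -1.33 ± 0.156 (SE) and -0.26 ± 0.111 (SE) at 7D 0 mg/kg. In the test over the 3 doses the smallest adjusted p of the 12 genes was 0.208 at 7D and 0.373 at 21D (edgeR quasi-likelihood). Nox3, Noxa1, Noxo1 and Duoxa2 were not analysed here.

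Of 29 other antioxidant enzymes and their regulators 27 were listed. At 7D 0 mg/kg 7 were called higher and 11 lower, with a median log2 fold change of 0.0114, and at 21D 0 mg/kg 4 were higher and 9 lower with a median of 0.03. As shares of the list these are to be read beside the same 35.8% and 35.6% of all genes at 7D and 32.2% and 33.7% at 21D, with medians of 0.0481 and 0.0292. The largest rise was in Slc7a11, the cystine importer that feeds glutathione synthesis, at 3.54, 1.44 and 0.572 CPM in control and 105, 52.4, 44.6, 19.9 and 37.5 CPM in 7D 0 mg/kg tendons. Slc7a11 changed by 4.75 ± 1.25 (SE) on the log2 scale (edgeR quasi-likelihood, adjusted p = 0.00157), and at 21D 0 mg/kg its tendons were at 10.7, 202, 8.71, 13.3 and 166 CPM. Gpx8 and Gpx7, glutathione peroxidase relatives of the endoplasmic reticulum, rose by 1.38 ± 0.182 (SE) and 1.31 ± 0.148 (SE), Gpx1, the cytosolic peroxidase, by 0.88 ± 0.19 (SE) and Gss, glutathione synthetase, by 0.70 ± 0.174 (SE). The largest falls were in Prdx3 (-2.08 ± 0.232 (SE)), Txn2 (-1.67 ± 0.186 (SE)) and Txnrd2 (-1.31 ± 0.241 (SE)), which form the peroxiredoxin and thioredoxin system of mitochondria, in Gpx4 (-1.18 ± 0.214 (SE)), which protects membrane lipids, and in Keap1 (-1.04 ± 0.106 (SE)), the repressor of NRF2. These mitochondrial genes are used by skeletal muscle too, whose 17 marker genes were all called lower at 7D 0 mg/kg, and the part of muscle in their fall was not tested. In the test over the 3 doses the smallest adjusted p of the 27 genes was 0.303 at 7D and 0.435 at 21D (edgeR quasi-likelihood).

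**Figure D5:**
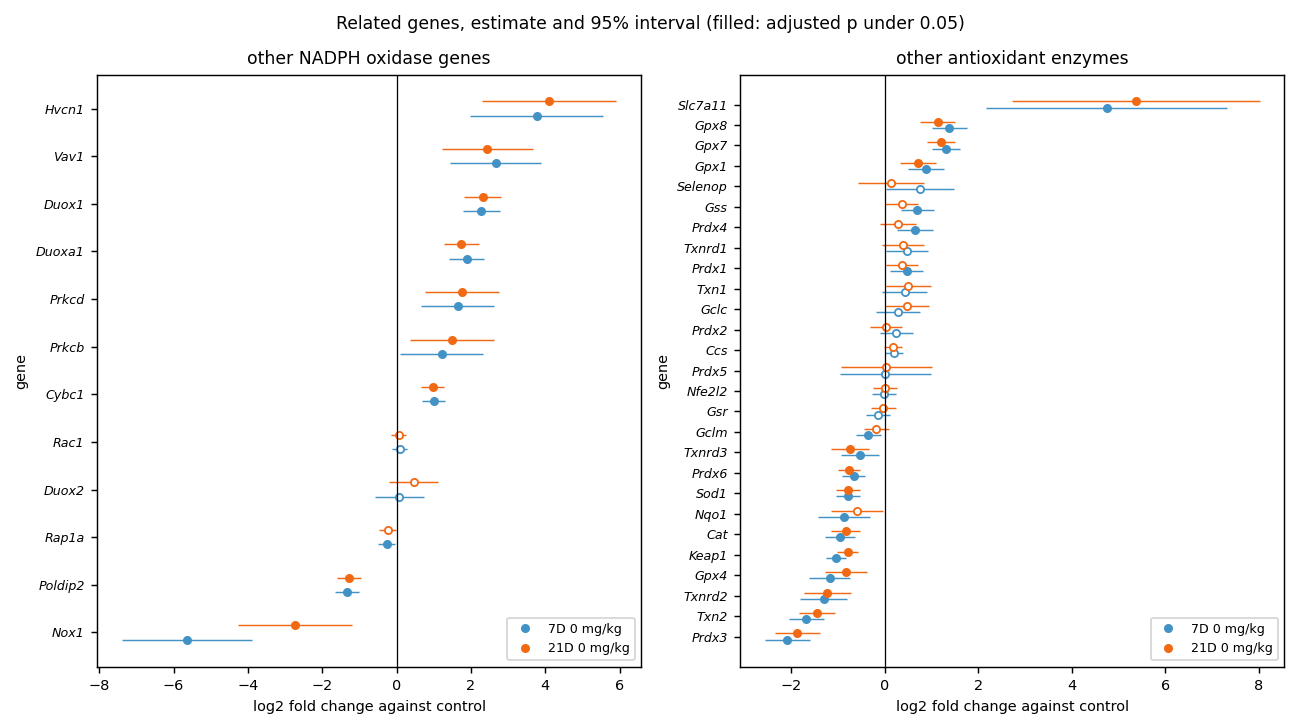
Log2 fold change against control (x axes; edgeR estimates and 95% intervals, filled where the adjusted p was under 0.05) of 12 other NADPH oxidase genes and 27 other antioxidant enzymes (y axes) at 7D and 21D 0 mg/kg. Hvcn1 and Slc7a11 are at the top of their panels, at 3.76 and 4.75 at 7D, and Nox1 and Prdx3 at the bottom, at -5.64 and -2.08.

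The genes nearest to each member in their course over the 30 tendons differed by member. Nearness was the root mean square difference of log2 CPM after centring each gene, over all 12558 genes, and it includes the difference between control and repaired tendons that most of these genes share. Nearest to Cybb were Itgad, Itgb2 and Trpv2 (differences of 0.25, 0.274 and 0.282, beside a SD of Cybb itself of 1.39). Nearest to Cyba were Rps6ka1, Cyth4 and Sh3bp2, to Ncf1 Lyn, Ctsz and Ppm1h and to Ncf4 Laptm5, AABR07045485.1 and Nfam1, and Cd68 and Napsa were among those nearest to Rac2. Nearest to Nox4 were Slitrk6, Olfml2b and Tubb2a, to Sod2 Hpf1, Nfkbia and Secisbp2, to Sod3 Entpd2, Plpp3 and Lamb2, and to Gpx3 C1qtnf2, S100a10 and Itgbl1. Among the members themselves the closest pair was Cyba and Ncf4 (0.265). From Nox4 the difference was 1.07 for Cybb and 0.512 for Cyba. Laptm5 and Cd68 belong to the leukocyte and macrophage marker lists.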

How the data were processed

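RNA of 30 rat plantaris tendons was sequenced by the authors with single-end reads, which were trimmed, mapped to rn6 with STAR and counted over exons of Ensembl genes. The strand setting of the counting is not given in the sources used here. The authors deposited a table of raw counts per gene with the width of each gene's genomic span, which was used only as a description. A table of the authors' own edgeR comparisons (fold changes, p-values and false discovery rates) was not used. Groups were taken from the labels, which give 3 tendons at 7D 6 mg/kg.

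Genes whose mean was below 3 CPM in every group were dropped, 566 of 13124. All 7 groups were fitted in 1 model with edgeR 4.0.16 (TMM, quasi-likelihood test, Benjamini-Hochberg adjustment, adjusted p under 0.05) in R 4.3.3 with limma 3.58.1. DESeq2 1.42.0 was an alternative. CPM are TMM-scaled, and a prior count of 2 was added for log2 CPM. Correlations and exact tests used SciPy 1.17.1 in Python 3.11.15. The scripts were tested on simulated data. No pair of tendons in a group agreed within sampling noise (lowest chi-square per degree of freedom 29.9). The floor was 3 counts per tendon, or 0.0601 to 0.242 CPM, and covers counting error only.

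The members and lists were chosen with earlier results of these data known. The rule for named genes was all members, the 5 genes of each related list with the largest called change in each direction at 7D 0 mg/kg, and the 3 genes nearest to each member, of which 1 is not reported here. Alternatives were RLE scaling, library size only, other filters, the muscle genes left out and the log2 of the muscle share as a covariate. Further alternatives were the replicate number as a block, only the groups compared, DESeq2, and leaving out each tendon in turn. The ratios to marker sums, the dose-centred correlations and the correlations without 2 tendons were added after the data were seen.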

Additional observations from a re-analysis of the deposited data

Results flagged for a closer look

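Single tendons lay far from the others of their group in 5 of 45 member and group combinations with 4 or more tendons. For independent and normally distributed values about 1 in 20 is expected, or 2.2 of 45. The values here were CPM without a log, and the 5 phagocyte oxidase genes followed the same leukocyte signal. The 45 tests were thus not independent, and 2.2 is a rough guide only. The gap to the nearest tendon, divided by the range of the group, was past Dixon's critical value in each. Of the 5, 3 came from the same tendon, 7D 2 mg/kg replicate 5, which was low in Cyba (136 CPM against 223 CPM for the next, ratio 0.893), Ncf1 (84.2 against 130 CPM, ratio 0.929) and Rac2 (33.7 against 95.5 CPM, ratio 0.86). The summed pan-leukocyte level of that tendon was 558 CPM, the lowest of the 7D tendons. Its omission ended no call of these 3 genes against control.

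Cybb was at 1080 CPM in 21D 6 mg/kg replicate 5, the next tendon being at 414 CPM (ratio 0.743), and without it the change against control was 2.10 (edgeR quasi-likelihood, adjusted p = 0.0279). Ncf4 was at 123 CPM in 21D 0 mg/kg replicate 2, the next being at 52.1 CPM (ratio 0.712). That tendon had the highest pan-leukocyte sum of all, 2352 CPM. The groups of 3 tendons were not tested for such values.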

How the results depend on the processing

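There were 3 control tendons, all with muscle, and the cause of the changes given here was not tested. Values of single members were counted for the comparisons to control and of 21D against 7D, and the dose pairs are not part of these counts. Of 729 such values under other settings, 662 kept direction and call, 27 lost the call, 8 gained one and 32 changed direction. Of the 32, 22 did so with the muscle share as a covariate and 10 otherwise. Among these 32, 6 had a call with or without the covariate, as log2 fold changes of -0.35 for Cybb and -0.32 for Ncf4 at 7D 2 mg/kg, of -0.84 for Cybb, -0.20 for Ncf1 and -0.39 for Ncf4 at 7D 6 mg/kg, and of 1.09 for Cyba at 21D against 7D at 2 mg/kg (edgeR, adjusted p = 0.0455). The other 26 were not called in either fit. With the covariate these were -0.37 for Sod2 at 7D 2 mg/kg and, for 21D against 7D, 0.058 for Cyba, 0.087 for Ncf1, 0.18 for Ncf4, 0.17 for Rac2 and -0.058 for Sod3 at 0 mg/kg, 2.60 for Cybb, 0.87 for Ncf1, 1.40 for Ncf4 and 1.36 for Rac2 at 2 mg/kg, and 2.21 for Cybb, 0.80 for Cyba, 0.94 for Ncf1, 1.13 for Ncf4, 0.86 for Rac2 and -0.30 for Sod3 at 6 mg/kg. With library size only, Sod2 was 0.46, 0.41, 0.25 and 0.12 at 7D 0, 7D 6, 21D 0 and 21D 2 mg/kg, Sod3 0.27 at 21D 2 mg/kg, and -0.0088 and -0.074 for 21D against 7D at 0 and 6 mg/kg. Cyba for 21D against 7D at 2 mg/kg, -0.0065 as reported, became 0.020 with no filter, 0.012 with a minimum mean of 10 CPM and 0.036 with the replicate block. With the macrophage sum as denominator in place of the pan-leukocyte sum, the log2 ratio against control turned to 0.456, 0.403, 0.307 and 0.469 for Cyba, Ncf1, Ncf4 and Nox4 at 7D 0 mg/kg and to 0.336, 0.125 and 0.139 for Cyba, Ncf1 and Ncf4 at 21D 0 mg/kg.

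With that covariate the genes called went from 8757 to 1445 at 7D 2 mg/kg and from 8529 to 1486 at 7D 6 mg/kg against control, with members higher going from 6 to 1 in both, and from 7 to 4 at 21D 6 mg/kg. Members lower went from 1 to 0 at 7D 0 mg/kg and from 2 to 1 at 21D 6 mg/kg. Genes called went from 672 to 259 for 21D against 7D at 0 mg/kg and from 1643 to 261 at 6 mg/kg, and 1 member, Cyba, became higher at 2 mg/kg. They went from 296 to 1278 for 2 against 0 mg/kg and from 49 to 573 for 6 against 0 mg/kg at 7D, where 1 member, Ncf1, became lower, from 0 to 1 for 6 against 2 mg/kg at 7D and from 0 to 22 at 21D, from 258 to 826 over the doses at 7D, and from 49 to 561 for the dose by time interaction.

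DESeq2 called 1 member lower at 7D 6 mg/kg and 1 at 21D 0 mg/kg, and 1 higher for 21D against 7D at 0 mg/kg, each 0 in edgeR. It called 1496 genes for 21D against 7D at 0 mg/kg, 710, 194 and 69 for the 7D pairs of 2 against 0, 6 against 0 and 6 against 2 mg/kg, and 19, 1 and 254 for the same pairs at 21D. RLE scaling called 1 member lower at 21D 0 mg/kg. Members lower at 7D 0 mg/kg and 21D 6 mg/kg, 1 and 2, became 0 and 0 with library size only, with a minimum mean of 10 CPM and with only the groups compared, and 0 and 1 with no filter. Library size only called 3 genes for 21D 6 against 2 mg/kg and 1 over the doses at 21D. Only the groups compared called 94 genes for 7D 6 against 0 mg/kg and 18 for 21D 6 against 2 mg/kg. Without the muscle genes the interaction had 28 genes.

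Replicate numbers did not pair the tendons, since only 29 of 76 pairs of same-numbered tendons had a correlation of deviations over 0.1 (range -0.701 to 0.681, median 0.00683). With the replicate block, members lower became 0 at 7D 0 mg/kg and 1 at 21D 6 mg/kg, genes called became 1 for 7D 6 against 2 mg/kg and 28 for the interaction, and no other count of genes or members moved by over 1.5 times.

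Leaving out each tendon in turn, the member values were again counted without the dose pairs. Of 648 values, 580 kept direction and call, 23 lost the call, 10 gained one and 35 changed direction, all 35 not called with or without the tendon. Against control those with a change of direction ranged, at 7D 0 mg/kg, from -0.36 to 0.10 for Sod2 and -0.16 to 0.45 for Gpx3, at 7D 2 mg/kg from -0.11 to 0.36 for Sod2 and -0.29 to 0.41 for Sod3, at 7D 6 mg/kg from -0.43 to 0.074 for Sod2 and at 21D 2 mg/kg from -0.59 to 0.11 for Sod3. For 21D against 7D they ranged at 0 mg/kg from -0.26 to 0.99 for Cybb, -0.60 to 0.093 for Ncf4 and -0.083 to 0.12 for Sod3, at 2 mg/kg from -0.44 to 0.17 for Cybb and -0.16 to 0.11 for Cyba, and at 6 mg/kg from -0.91 to 0.15 for Cybb, -0.28 to 0.16 for Nox4 and -0.16 to 0.23 for Sod3. Members higher at 21D 6 mg/kg were 4 to 7, the 4 being without control replicate 4, and 0 to 1 for 21D against 7D at 0 mg/kg. Members lower were 0 to 1 at 7D 0, 7D 6, 21D 0, 21D 2 and 21D 6 mg/kg. Genes called were 203 to 1411, 953 to 1545 and 795 to 1973 for 21D against 7D at 0, 2 and 6 mg/kg, 125 to 464, 0 to 60 and 0 to 3 for 2 against 0, 6 against 0 and 6 against 2 mg/kg at 7D, 0 to 1 for 6 against 2 mg/kg at 21D, 161 to 315 and 0 to 2 over the doses at 7D and 21D, and 16 to 79 for the interaction.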
